A study of Mus musculus with 10 samples.

Results

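Hepcidin and its partners were followed as 10 genes of iron handling, *Hamp*, *Hamp2*, *Bmp6*, *Id1*, *Smad7*, *Tfr2*, *Hfe*, *Tmprss6*, *Tfrc* and *Slc40a1*, chosen by name. All 10 were measured, each by 1 probe set, among 22180 genes tested. Liver RNA of 10 mice was read on an Affymetrix Mouse Gene 2.0 array for each animal. The 6 knockout mice, *Vps33b* fl/fl-AlfpCre, were males 1, 2 and 3 and females 4, 5 and 6. The 4 *Vps33b* fl/fl controls, which the labels call wild type, were males 1 and 2 and females 3 and 4. Per the methods the controls were littermates without Cre, all mice carried the floxed alleles on a C57BL/6J background, and AlfpCre removed *Vps33b*, a gene of vesicle trafficking, from hepatocytes and cholangiocytes, so that the other cells of whole liver kept it. All mice had received chow with 0.5% cholic acid, a primary bile acid. The labels give a start at 10 weeks of age and 2 weeks of feeding, whereas the methods give an earlier start and longer feeding. For the array mice the paper states a range of ages at sacrifice that begins at 10 weeks.

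Hepcidin is a small peptide hormone that hepatocytes release into blood, where it binds the iron exporter ferroportin on other cells and brings about its breakdown. Its gene is known to be driven by iron through bone morphogenetic protein 6 (BMP6), which sinusoidal endothelial cells secrete and which acts on hepatocytes through haemojuvelin, BMP receptors and SMAD proteins, and by inflammation through interleukin 6 and STAT3. HFE and transferrin receptor 2 report transferrin-bound iron to this pathway, and the protease matriptase-2 restrains it. Mice carry a duplicate, *Hamp2*, for which a role in iron balance has not been established.

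The promoters of the hepcidin pair are shown because BMP and inflammatory signals are known to reach *Hamp* through short elements close to its start. Both genes lie on the minus strand of chromosome 7, with the pseudogene *Usf2-ps1* between them in the RefSeq annotation. The 250 bases before the start are given 5′ to 3′ from RefSeq (GRCm38.p6), chr7:30944030-30944279 for *Hamp* and chr7:30924182-30924431 for *Hamp2*. Capitals mark the letters GGCGCC, the core of the BMP-responsive element, and TTCNNNGAA, the STAT core.
Hamp: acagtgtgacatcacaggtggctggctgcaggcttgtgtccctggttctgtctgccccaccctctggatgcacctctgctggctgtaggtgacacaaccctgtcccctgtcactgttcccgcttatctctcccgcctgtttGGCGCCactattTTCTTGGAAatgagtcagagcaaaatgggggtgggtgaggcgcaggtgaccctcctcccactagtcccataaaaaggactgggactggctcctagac
Hamp2: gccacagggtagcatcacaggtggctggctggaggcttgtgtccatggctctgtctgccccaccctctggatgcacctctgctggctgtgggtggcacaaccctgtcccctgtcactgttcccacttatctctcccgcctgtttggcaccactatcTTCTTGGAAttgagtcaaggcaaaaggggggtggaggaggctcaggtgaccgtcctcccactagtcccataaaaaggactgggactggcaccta
Both motifs read the same on either strand and do not overlap here. The *Hamp* window held GGCGCC with its first base 109 bases before the start and the STAT core at 97. The *Hamp2* window held the STAT core at 94 and no GGCGCC. Aligned with *Hamp*, its letters there differed by the substitution G4A, with the base of *Hamp* first and positions counted from 1 at the first base of GGCGCC. Over 247 aligned bases the windows agreed at 227 (91.9%), with 6 gap columns. Of 32851 mouse promoter windows of this length, 9.59% held GGCGCC, 7.02% held the STAT core and 0.368% held both. Windows were found for 6 of the 10 genes. *Tfrc* had 1 GGCGCC, at 89, in 1 of its 2 windows, and those of *Tfr2*, *Hfe* and *Bmp6* held neither motif. Probe sequences were not analysed here, so cross-reading between the *Hamp* and *Hamp2* probe sets was not tested.

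Values are log2 expression, on which a difference of 1 is a doubling, and they cannot be compared between genes, since probe sets differ in brightness. Correlations between pairs of arrays over all probe sets ran from 0.982 to 0.991. As a background reading, 3 Y-linked genes gave 3.38 to 4.51 in females, and each of the 10 genes averaged above this. *Vps33b* itself (probe set 17479548) read 8.92 to 9.39 in knockout mice and 9.12 to 9.15 in controls (0.08, limma adjusted p = 0.739). Per the methods, the floxed alleles flank some exons rather than the whole gene. The sources used here do not say which exons this probe set covers, so it checks nothing about the labels. For this mouse line the paper reports that hepatocytes lost *Vps33b*, as seen by Western blotting and by in situ hybridisation. Defining hepatocyte markers were bright in all mice, with a mean over 10 markers of 12.87 to 12.99 in knockout mice and 12.95 to 13.03 in controls. Of these 10, 0 were called higher (3.11% of all genes) and 0 lower (1.14%). At these shares a list of this size may hold no call. Their fitted differences were below 0 for 8 of 10, against 51.9% of all genes. Marker means of macrophages (9.19 to 9.75 against 8.66 to 9.16) and of bile duct (6.19 to 6.53 against 5.55 to 5.75) were higher in every knockout mouse than in every control, as were 3.39% of all genes taken singly. Those of sinusoidal endothelium (8.87 to 9.13 against 8.59 to 9.06) and of stellate cells and fibroblasts (7.71 to 8.08 against 7.43 to 7.84) overlapped. Of the 10 macrophage markers, 1 had a fitted difference below 0.

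None of the 10 genes passed the genotype test, which was limma with genotype and sex as terms, an adjustment by Benjamini and Hochberg across the 22180 genes and a threshold of 0.05. Higher calls were made for 0 of 10 (3.11% of all genes) and lower calls for 0 of 10 (1.14%). At an unadjusted p under 0.05, 1 was higher (*Bmp6*, against 9.65% of all genes) and 2 were lower (*Hamp* and *Hamp2*, against 7.67%). The fitted difference, knockout minus control, was below 0 for 8 of 10, against 51.9% of all genes, with a median of -0.157 over the 10 and of -0.00696 over all genes. The sizes set *Hamp2*, *Bmp6* and *Hamp* apart from the other genes, whose fitted differences lay between -0.22 and 0.12. A gene that misses the threshold is not thereby shown to be unchanged, and the intervals are given for that reason.

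**Figure D1:**
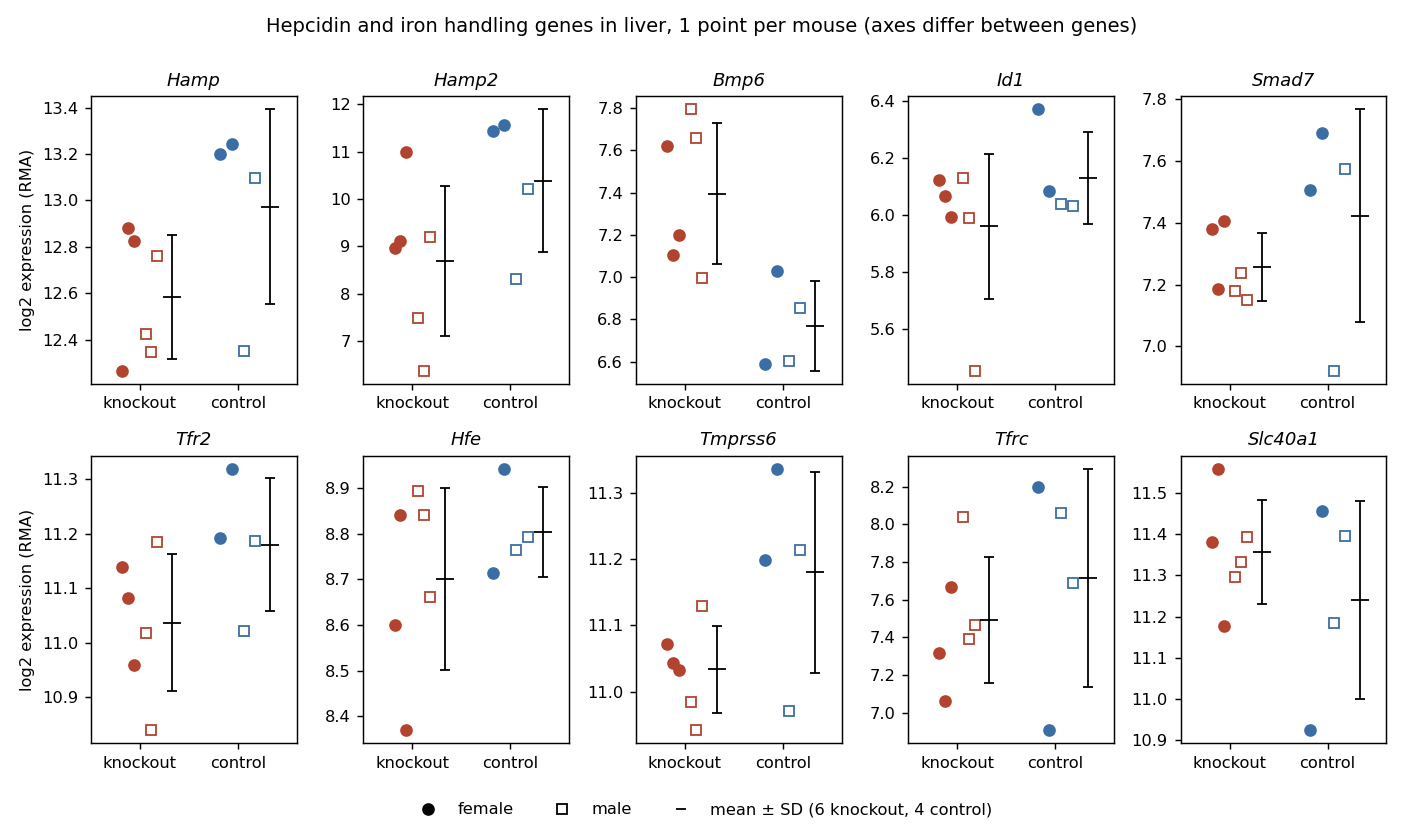
Log2 expression of the 10 genes in each mouse, with 6 knockout mice left of 4 controls, filled circles for females and open squares for males. The bars give the mean and SD of each genotype. Knockout and control mice overlap in every panel, and *Bmp6* comes nearest to a gap, with knockout mice at 7.0 to 7.79 and controls at 6.59 to 7.03.

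*Hamp*, the hepcidin gene, read 12.43, 12.35 and 12.76 in knockout males 1 to 3 and 12.27, 12.88 and 12.83 in knockout females 4 to 6. The controls read 12.35 and 13.10 in males 1 and 2 and 13.20 and 13.25 in females 3 and 4. Of the controls, 3 lay above every knockout mouse, and control 1 lay among the lowest knockout mice. The means were 12.58 ± 0.27 in knockout mice (SD, n = 6) and 12.97 ± 0.42 in controls (SD, n = 4), a fitted difference of -0.39 (standard error 0.17, 95% interval -0.76 to -0.02), or 0.763 of the control level. The limma p was 0.0396 unadjusted and 0.256 adjusted. Leaving out control 1 gave -0.57 with an adjusted p of 0.0436, within a range of 0.0436 to 0.551 over all alternatives, so the call turned on this mouse. In bulk liver, fewer cells of a type and less RNA per cell cannot be told apart. The hepatocyte marker means given above overlapped between genotypes, and their part in the difference in *Hamp* was not tested.

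*Hamp2* spread over a wider range than any other of the 10 genes. In knockout males 1 to 3 it read 7.48, 6.37 and 9.20, and in knockout females 4 to 6 it read 8.96, 9.12 and 11.00. In controls it read 8.31 and 10.21 in males 1 and 2 and 11.43 and 11.57 in females 3 and 4. Within each genotype the females held the top reading, and within each sex the control mean was the higher. Only 10 of the 22180 genes had a larger SD within groups of genotype and sex than the 1.19 of *Hamp2*. The means were 8.69 ± 1.59 in knockout mice (SD, n = 6) and 10.38 ± 1.51 in controls (SD, n = 4), with a fitted difference of -1.69 (standard error 0.56, 95% interval -2.91 to -0.47), or 0.310 of the control level. The limma p was 0.0106 unadjusted and 0.126 adjusted. Leaving out knockout 3 gave -2.05 with an adjusted p of 0.0380, and limma array weights gave -2.02 with 0.0355, within a range of 0.0355 to 0.353 over all alternatives.

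*Bmp6*, the iron-responsive ligand of the BMP branch, was the gene of the 10 with the smallest unadjusted p, and its fitted difference ran opposite to that of *Hamp*. It read 7.79, 7.66 and 7.0 in knockout males 1 to 3 and 7.62, 7.10 and 7.20 in knockout females 4 to 6. The controls read 6.60 and 6.86 in males 1 and 2 and 6.59 and 7.03 in females 3 and 4. All 6 knockout mice exceeded the controls of their sex, as was so for 5.2% of all genes, although male knockout 3 lay just under female control 4. The means were 7.40 ± 0.33 in knockout mice (SD, n = 6) and 6.77 ± 0.21 in controls (SD, n = 4), a fitted difference of 0.63 (standard error 0.17, 95% interval 0.26 to 0.99) or 1.54-fold. The limma p was 0.0031 unadjusted and 0.0618 adjusted, so the test was missed by a narrow margin. Leaving out knockout 3 gave 0.73 with an adjusted p of 0.0243, testing only genes above the Y-linked reading gave 0.0490 and array weights gave 0.0499, within a range of 0.0243 to 0.169 over all alternatives. Among the markers of sinusoidal endothelium, the known source of BMP6 in liver, *Cdh5*, the endothelial cadherin, was higher (0.34, adjusted p = 0.0373). The other 9 of 10 did not pass, *Lyve1* among them (0.52, adjusted p = 0.0604). Over the 10 markers the median was 0.144, and 2 had a fitted difference below 0 (51.9% of all genes). The *Cdh5* call, 1 of 10 against 3.11% of all genes higher, ended under 11 of 20 alternatives. The part of these markers in the *Bmp6* difference was not tested.

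*Id1* and *Smad7*, which report BMP signalling, did not pass the test. *Id1*, a transcriptional regulator and a direct SMAD target, read 6.13, 5.99, 5.45, 6.12, 6.07 and 5.99 in knockout mice 1 to 6 and 6.04, 6.03, 6.37 and 6.09 in controls 1 to 4. Apart from the low knockout 3 and the high control 3, the mice of both genotypes lay close together. The fitted difference was -0.17 (95% interval -0.44 to 0.09, adjusted p = 0.535). *Smad7*, the inhibitory SMAD that feeds back on the pathway, read 7.18, 7.24, 7.15, 7.38, 7.19 and 7.41 in knockout mice 1 to 6, and 6.92, 7.58, 7.51 and 7.69 in controls 1 to 4. Of the controls, 3 lay above all knockout mice and control 1 lay below them. The fitted difference was -0.17 (95% interval -0.43 to 0.09, adjusted p = 0.538).

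The genes that set the level of the signal in the hepatocyte were close between genotypes. *Tfr2*, the second transferrin receptor, ran from 10.84 to 11.19 in knockout mice (median 11.05) and read 11.02, 11.19, 11.19 and 11.32 in controls (-0.14, 95% interval -0.33 to 0.05, adjusted p = 0.453). *Tmprss6*, which encodes matriptase-2, ran from 10.94 to 11.13 in knockout mice (median 11.04) and read 10.97, 11.21, 11.20 and 11.34 in controls (-0.15, 95% interval -0.32 to 0.03, adjusted p = 0.395). In *Tmprss6* the controls other than control 1 lay above all 6 knockout mice, while in *Tfr2* the groups overlapped more widely. *Hfe*, an MHC class I-like protein that binds transferrin receptors, ran from 8.37 to 8.89 in knockout mice (median 8.75) and from 8.71 to 8.94 in controls (median 8.78). It differed by -0.10 (95% interval -0.33 to 0.13, adjusted p = 0.701). The intervals of *Tfr2*, *Tmprss6* and *Hfe* reached no further than -0.33 and 0.13 on the log2 scale.

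The cell surface genes of iron entry and exit overlapped between genotypes. *Tfrc*, the transferrin receptor whose mRNA is stabilised when a cell is short of iron, ran from 7.06 to 8.04 in knockout mice (median 7.43) and read 8.06, 7.69, 8.20 and 6.91 in controls. All knockout mice lay inside the range of the controls, of which control 4 was the lowest and control 3 the highest. The difference was -0.22 (95% interval -0.72 to 0.28, adjusted p = 0.694), and it reached 0.02 without control 3. *Slc40a1*, which encodes ferroportin, ran from 11.18 to 11.56 in knockout mice (median 11.36) and read 11.18, 11.40, 10.92 and 11.46 in controls, a difference of 0.12 (95% interval -0.13 to 0.37, adjusted p = 0.677), and it was -0.0012 without control 3. Hepcidin acts on the ferroportin protein, which arrays do not measure.

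Mouse hepcidin genes are known to differ between the sexes, and the arrays hold both. *Hamp2* averaged 10.42 ± 1.27 in females and 8.31 ± 1.49 in males (SD, n = 5 each), a fitted difference, female minus male, of 2.10 (standard error 0.54, 95% interval 0.91 to 3.29) or 4.29-fold, with an adjusted p of 0.15 and an unadjusted p of 0.00242 in limma. Taken alone, the knockout mice gave 2.01 and the controls 2.24. Female knockout 4 (8.96) lay below male knockout 3 (9.20), and in controls both females lay above both males. *Hamp* averaged 12.88 ± 0.39 in females and 12.60 ± 0.33 in males (SD, n = 5 each), a difference of 0.29 (95% interval -0.07 to 0.65, adjusted p = 0.530). For sex, 0 of 10 genes were called higher in females (0.284% of all genes) and 0 of 10 lower (0.207%). At an unadjusted p under 0.05, *Hamp2* alone of the 10 was higher in females, as were 6.48% of all genes.

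Within each sex, *Hamp* differed by -0.57 in females (95% interval -1.09 to -0.04, adjusted p = 0.297) and by -0.21 in males (95% interval -0.73 to 0.31, adjusted p = 0.802). *Hamp2* differed by -1.81 in females (95% interval -3.62 to 0.00) and by -1.58 in males (95% interval -3.38 to 0.23), and *Bmp6* by 0.50 in females (95% interval -0.04 to 1.03) and by 0.75 in males (95% interval 0.22 to 1.29). These genes thus had the same sign in both sexes, although that of *Hamp* in males rested on control 2, without which it was 0.16. The difference between the female and the male effect missed the threshold. It was -0.35 for *Hamp* (adjusted p = 0.913), -0.23 for *Hamp2* (adjusted p = 0.987) and -0.25 for *Bmp6* (adjusted p = 0.945). The intervals were wide, at -1.09 to 0.39 for *Hamp* and -2.79 to 2.33 for *Hamp2*. No gene of the 10 was called within females (0.906% of all genes called in either direction), within males (0.347%) or for the difference (0.00451%). With 3 knockout and 2 control mice per sex, control 1 again decided the sign of the *Hamp* difference between sexes, which was 0.02 without it.

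**Figure D2:**
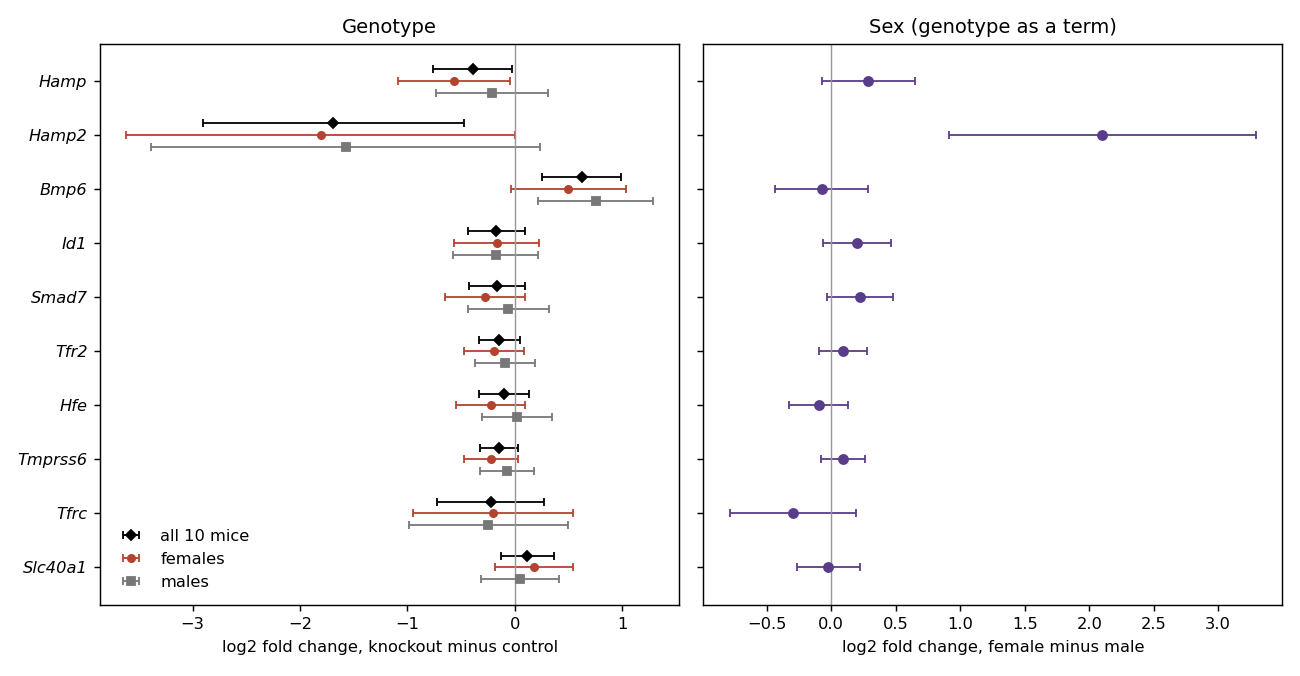
Fitted log2 differences of the 10 genes with 95% intervals from limma, on the left knockout minus control over all 10 mice and within females and males, on the right female minus male. *Hamp2* has the widest intervals in both panels, with -1.69 for genotype and 2.10 for sex, and *Bmp6* alone has an interval wholly above 0 for genotype over all mice.

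Because *Hamp* varied within groups, its deviations from the mean of each mouse's genotype and sex were set against those of 4 partners over the 10 mice, with an exact two-sided permutation test that exchanges mice within groups (144 permutations, smallest possible p 0.00694) and adjustment over the 4 relations. Mice high in *Hamp* tended to be high in *Hamp2*, with Pearson's r = 0.753 (permutation p = 0.104, adjusted 0.208) and Spearman's rho = 0.782 (permutation p = 0.0903, adjusted 0.181). Leaving out the 2 mice farthest from the median in *Hamp2*, knockouts 3 and 6, left r at 0.734. With *Id1*, r was -0.443 (permutation p = 0.0486, adjusted 0.194) and rho was -0.564 (permutation p = 0.0278, adjusted 0.111), with r = -0.34 without knockouts 1 and 3. With *Bmp6*, r was -0.416 (permutation p = 0.236, adjusted 0.315) and rho was -0.503 (permutation p = 0.167, adjusted 0.222). Without knockouts 3 and 4 this r was -0.0542, and over the 6 knockout mice alone, as a description, it was -0.885, with both control pairs running the other way. With *Smad7*, r was 0.48 (permutation p = 0.736, adjusted 0.736) and rho was 0.261 (permutation p = 0.736, adjusted 0.736), and r was -0.398 without controls 1 and 2, on which it rested. None of the 4 relations passed after adjustment. Whether cross-reading of probes has a part in the relation of the hepcidin pair was not tested.

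**Figure D3:**
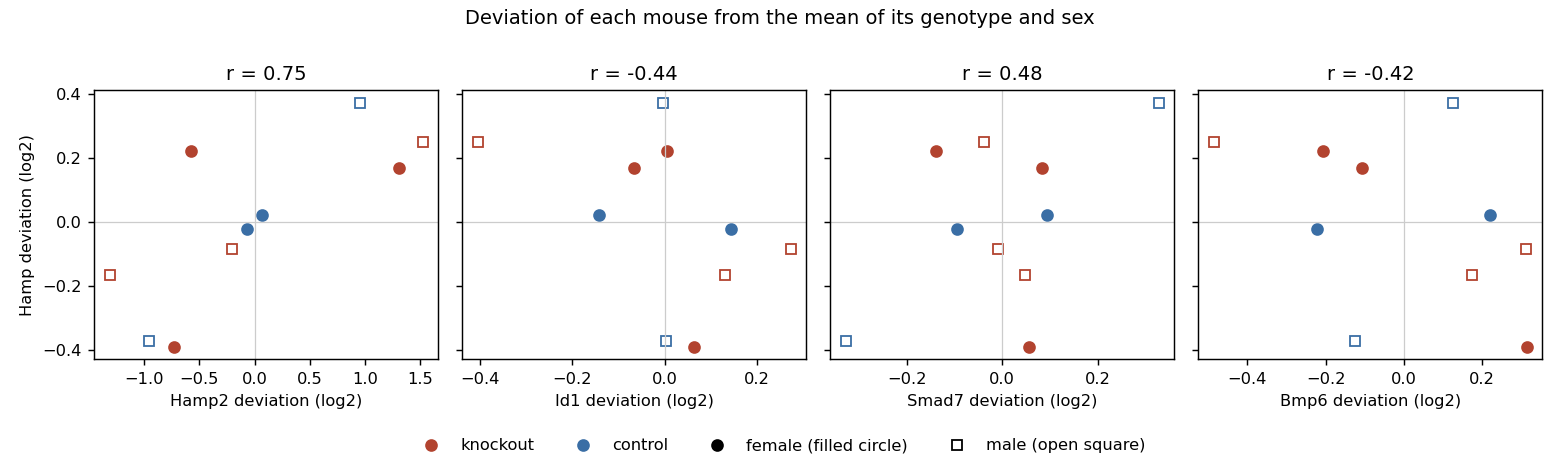
Deviation of *Hamp* (vertical, log2) against that of *Hamp2*, *Id1*, *Smad7* and *Bmp6* (horizontal, log2) in 10 mice, each taken from the mean of its genotype and sex. Red marks knockout and blue control mice, filled circles females and open squares males. The points of *Hamp2* rise together with *Hamp* (r = 0.75), and the male controls at opposite corners carry the relation with *Smad7* (r = 0.48).

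By the same measure over the 10 mice, the genes most like *Hamp* were *Dpyd* (r = 0.995), which encodes dihydropyrimidine dehydrogenase of pyrimidine breakdown, *Pm20d1* (r = 0.99), a secreted enzyme of N-acyl amino acids, *Olfr1475* (r = 0.986), an olfactory receptor, *Ubr3* (r = 0.979), an E3 ubiquitin ligase, and *Abhd15* (r = 0.97). They are a description of these mice, picked as the highest of 22180 correlations. Among the other 9 genes of iron handling, the closest were *Hamp2*, with an r above that of 96.7% of all genes, and *Tmprss6* (r = 0.653, above 93% of all genes). *Bmp6* and *Id1* lay at the lower end, above 20.6% and 18.9% of all genes.

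Of the wider BMP and haemojuvelin branch, 0 of 22 measured genes were called higher (3.11% of all genes) and 0 lower (1.14%). The median was 0.0078. At an unadjusted p under 0.05, 0 were higher (9.65% of all genes) and 1 was lower (7.67%). This was *Acvr2a*, a type II receptor for activins and BMPs. It ran from 7.64 to 8.37 in knockout mice and from 8.16 to 8.36 in controls (-0.24, adjusted p = 0.274). *Id3*, a sister of *Id1*, ran from 8.67 to 9.30 in knockout mice and from 8.69 to 9.63 in controls (-0.31, adjusted p = 0.370). *Hjv*, the haemojuvelin co-receptor, differed by -0.04 (adjusted p = 0.872), and *Erfe*, the erythroid hormone erythroferrone that lowers hepcidin, by 0.03 (adjusted p = 0.911). Among the measured receptors, SMADs and targets of this branch, then, none was called in either direction. At the shares of all genes a list of this size may hold no call, so this does not set the branch apart.

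In the inflammatory arm of hepcidin control, 2 of 15 genes were higher (3.11% of all genes) and none was lower (1.14%), with a median of 0.119. *Osmr*, the receptor subunit for oncostatin M, a cytokine of the interleukin 6 family, read 7.67, 7.26, 7.01, 7.81, 7.78 and 8.14 in knockout mice 1 to 6 and 6.92, 6.59, 6.64 and 6.79 in controls 1 to 4. The groups did not overlap, as for 3.39% of all genes with knockout mice on top, and the difference was 0.87 (standard error 0.16, adjusted p = 0.0128). The call ended without control 2 (0.0515) or control 4 (0.0555). The other gene was the cytokine *Il1b*, at 6.32 to 7.90 in knockout mice and 5.66 to 6.01 in controls (1.30, adjusted p = 0.00622). *Il6* itself averaged 3.22, below the Y-linked reading in females, and no level was measured. *Stat3*, the mediator of this arm, differed by 0.25 (adjusted p = 0.105), and *Inhbb*, the activin B subunit, by 0.48 (adjusted p = 0.0551). *Lifr*, another receptor of the interleukin 6 family, differed by -0.43 (adjusted p = 0.0546). *Stat3* did not overlap between genotypes, with knockout mice on top (3.39% of all genes). *Lifr* did not overlap either, at 10.50 to 10.95 in knockout mice and 10.97 to 11.40 in controls (1.93% of all genes). Over 20 alternatives the list held 1 to 4 higher and 0 to 1 lower calls. Macrophage markers moved with this list, with 3 of 10 higher (3.11% of all genes) and 0 lower (1.14%). These were *Lyz2* (0.63, adjusted p = 0.0289), *Cd5l* (0.78, adjusted p = 0.0368) and *Cd68* (1.21, adjusted p = 0.0493). The calls of *Lyz2* and *Cd5l* ended with some mice left out, and *Cd68* was not put through the alternatives. The part of the macrophage markers in the differences of this list was not tested.

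Of 14 genes of iron uptake, 2 were higher (3.11% of all genes) and none was lower (1.14%), with a median of 0.17. These were *Lcn2*, a lipocalin that binds bacterial siderophores and their iron (10.01 to 11.09 in knockout mice and 9.26 to 9.65 in controls; 1.10, adjusted p = 0.00388), and *Steap2*, a metalloreductase. *Steap2* read 8.84, 8.61, 8.52, 8.90, 9.16 and 8.68 in knockout mice 1 to 6 and 7.51, 7.79, 8.73 and 8.49 in controls 1 to 4. The groups overlapped through female control 3, and the difference was 0.65 (standard error 0.15, adjusted p = 0.0350). Its call held without control 3 or knockout 6, and leaving out any other mouse ended it, with an adjusted p of up to 0.119, as did a fit with no sex term (0.136) and median centring (0.0532). Related reductases did not pass, with *Steap4* at 0.58 (adjusted p = 0.0750) and *Steap3*, the endosomal ferrireductase of the transferrin cycle, at 0.28 (adjusted p = 0.208). Bile duct markers moved in the same direction, with 4 of 6 higher (3.11% of all genes) and 0 lower (1.14%). These were *Epcam* (1.14, adjusted p = 0.000996), *Sox9* (1.09, adjusted p = 0.0188), *Krt19* (0.52, adjusted p = 0.0133) and *Cldn7* (0.74, adjusted p = 0.00622), of which *Cldn7* averaged 4.34, under the highest Y-linked reading. Their part was not tested.

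Storage and sensing genes showed no call in 7 measured (3.11% of all genes higher and 1.14% lower), with a median of -0.0124. At these shares so short a list may hold no call, and the same goes for the oxidases below. *Fth1*, the ferritin heavy chain, differed by -0.01 (adjusted p = 0.958). The iron regulatory proteins bind iron-responsive elements in mRNAs, among them those of *Tfrc*, ferritin and *Slc40a1*. *Ireb2*, which encodes IRP2, ran from 9.05 to 9.37 in knockout mice and from 9.26 to 9.62 in controls (-0.24, adjusted p = 0.131), and *Aco1*, which encodes IRP1, from 11.30 to 11.50 in knockout mice and from 11.44 to 11.65 in controls (-0.16, adjusted p = 0.300). In both, the knockout mice all lay under the controls of their sex, as was so for 3.72% of all genes. Of 3 oxidases that load exported iron onto transferrin, none was called, with *Cp*, ceruloplasmin, at 0.12 (adjusted p = 0.457) and *Heph*, hephaestin, at -0.16 (adjusted p = 0.638).

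Of 15 haem genes, 2 were lower (1.14% of all genes) and none was higher (3.11%), with a median of -0.122. *Cpox*, coproporphyrinogen oxidase of the mitochondrial end of haem synthesis, read 8.94, 8.88, 9.28, 8.91, 8.98 and 9.43 in knockout mice 1 to 6 and 10.18, 10.23, 9.82 and 9.91 in controls 1 to 4. The groups did not overlap, as for 1.93% of all genes with knockout mice below, with a difference of -0.96 (standard error 0.13, adjusted p = 0.00346) or 0.513 of the control level. *Alas1*, the rate-limiting enzyme of hepatic haem synthesis, read 10.61, 10.47, 10.91, 10.72, 10.41 and 10.82 in knockout mice 1 to 6 and 11.25, 11.12, 11.02 and 11.16 in controls 1 to 4. It too was lower in every knockout mouse than in any control, with a difference of -0.48 (standard error 0.11, adjusted p = 0.0298). The *Cpox* call held under all 20 alternatives (adjusted p of 0.00133 to 0.0206), whereas that of *Alas1* held without knockout 3 or knockout 6 and ended without any other mouse, at up to 0.105, as well as with quantile normalisation (0.0516). The remaining measured enzymes of synthesis, *Ppox*, *Uros*, *Urod*, *Fech* and *Alad*, had fitted differences of -0.20 to -0.10 and did not pass. *Hmox1*, haem oxygenase, which frees iron from haem, ran from 8.34 to 9.78 in knockout mice and from 7.37 to 9.21 in controls (0.87, adjusted p = 0.158).

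Mitochondrial iron and iron-sulphur cluster genes gave no call in 11 (3.11% of all genes higher and 1.14% lower), with a median of -0.0602. At these shares a list of this size may hold no call. *Slc25a37*, mitoferrin 1, which imports iron into mitochondria, ran from 8.89 to 9.63 in knockout mice and from 9.32 to 9.90 in controls, and its adjusted p of 0.050 lay just above the threshold (-0.39). *Isca1*, a cluster assembly factor, ran from 9.21 to 9.40 in knockout mice and from 9.43 to 9.68 in controls, without overlap, as for 1.93% of all genes with knockout mice below (-0.26, adjusted p = 0.0692). Over all 7 wider iron lists, 4 of 87 measured genes were higher (3.11% of all genes), 2 were lower (1.14%) and 81 did not pass, with a median of 0.00479.

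**Figure D4:**
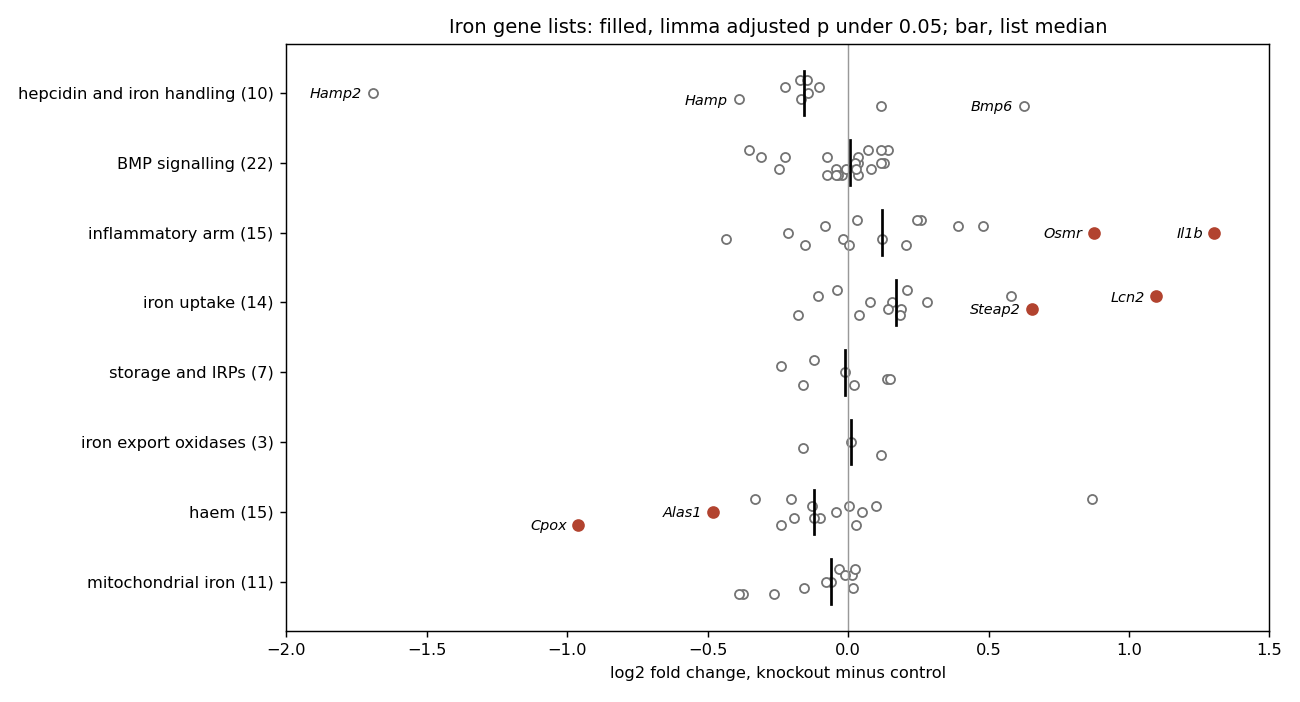
Fitted log2 differences, knockout minus control, of the 10 genes and of 7 wider iron lists, with the number of measured genes in brackets. Filled points passed limma at an adjusted p under 0.05, open points did not, and the bar is the median of the list. The hepcidin group has no filled point, and the filled points lie in the inflammatory, uptake and haem lists.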

How the data were processed

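Total RNA of whole liver from 10 mice (6 knockout, 4 control) was hybridised to 1 Affymetrix Mouse Gene 2.0 array per mouse. The authors deposited log2 values per probe set, made with RMA in the oligo package (versions not given in the sources used here), that is with background correction, quantile normalisation and summary of probes, and these were used unchanged. Of 41345 probe sets, 23521 carried 1 gene symbol in the platform annotation. For a gene with several, the probe set with the highest mean was kept, which left 22180 genes. Genotype and sex were the terms of a fit of each gene in limma 3.58.1 under R 4.3.3. Effects within each sex and their difference came from a fit of 4 group means. The number of arrays limits the precision. Code was tested on simulated data.

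The 10 genes and the lists were chosen with earlier results of these data known. Beside them and *Vps33b*, the text names list genes past the threshold (up to 4 per list, otherwise the 2 with the smallest adjusted p), 2 per marker list and the 5 genes most like *Hamp*. *Hjv*, *Erfe*, *Il6*, *Stat3*, *Inhbb*, *Lifr*, *Steap3*, *Steap4*, *Fth1*, *Hmox1*, *Cd68*, *Sox9*, *Krt19*, *Col1a1*, *Pdgfrb*, *Tspo2*, *Gata1*, *Hemgn* and the further enzymes of haem synthesis fall outside this rule and were picked with their values in view. The alternatives changed the model terms, the probe set per gene, the filter on dim genes, the scaling, the moderation or the array weights, or left out 1 mouse. The files give no slide or scan date. Protein sequences and the exons read by probe sets were not used here.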

Additional observations from a re-analysis of the deposited data

Results flagged for a closer look

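In 22 groups of 4 or 6 mice (the 10 genes and *Vps33b* in knockout mice and in controls), the gap of the highest or lowest mouse to its neighbour, as a share of the range of the group, exceeded Dixon's 95% critical value in 3. Chance gives this in about 1 in 20 groups, and each group pools both sexes. *Id1* was lowest in knockout mouse 3 at 5.453, with a gap of 0.792 of the range of 6 mice (critical value 0.625). *Id1* was highest in control mouse 3 at 6.371, with a gap of 0.84 of the range of 4 mice (critical value 0.829). *Hamp* was lowest in control mouse 1 at 12.35, with a gap of 0.834 of the range of 4 mice (critical value 0.829). Without this mouse the *Hamp* difference passed the test.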

How the results depend on the processing

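Over 20 alternatives, *Hamp*, *Hamp2* and *Bmp6* kept their direction for genotype. *Hamp2* passed with array weights (-2.02), and *Bmp6* with array weights (0.61) and when only genes above the Y-linked reading were tested (0.63). With 1 mouse left out, *Hamp* ranged from -0.57 to -0.28, *Hamp2* from -2.08 to -1.35, *Bmp6* from 0.54 to 0.74, *Tfrc* from -0.48 to 0.020 and *Slc40a1* from -0.0012 to 0.20. The number of the 10 genes called higher became 1 with the filter on dim genes and with array weights, and the number called lower became 1 with array weights; with 1 mouse left out each was 0 to 1. Of the 87 other iron genes, the 4 higher became 1 with the replicate block and 8 with array weights, and 2 to 6 with 1 mouse left out. The 2 lower became 1 with the replicate block and with quantile normalisation, 5 with the dim filter, median centring or an intensity trend with robust variance, and 4 with array weights, and 1 to 4 with 1 mouse left out. Over all genes the calls ranged from 208 to 1031 higher and from 47 to 499 lower. Among the marker calls put through the alternatives, those of *Lyz2*, *Cd5l*, *Cdh5*, *Csf3r* and *Col3a1* ended with some mice left out. Their adjusted p reached 0.113, 0.142, 0.140, 0.0982 and 0.0547. The *Cdh5* call also ended with no sex term (0.0864) and with median centring (0.0649). The calls of *Cd68*, *Sox9*, *Krt19*, *Col1a1* and *Pdgfrb* were not put through the alternatives, so whether they hold is not known.

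The titles share replicate numbers, but nothing says that a number marks a litter or day. Mice of the same number did not deviate together (r of -0.238 to 0.122), and 0 of 4 controls matched best the knockout mouse of its number. With the number as a block, 208 genes were higher and 49 lower, *Il1b* (adjusted p = 0.0533), *Lcn2* (0.0559), *Alas1* (0.0717), *Steap2* (0.0952), *Cd5l* (0.0735), *Hhip* (0.0782), *Col3a1* (0.0808), *Csf3r* (0.0967) and *Cdh5* (0.279) no longer passed, and for genotype *Tfrc* was 0.030, *Slc40a1* -0.0095 and *Id1* 0.031. Sex then rests on number 3 alone, the one number held by a male and a female, and was -0.11 for *Hamp*, -0.20 for *Hamp2*, 0.76 for *Tfrc*, -0.17 for *Tfr2*, 0.45 for *Bmp6* and -0.10 for *Tmprss6*.

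The further reversals concerned differences within and between the sexes. The female minus the male effect was -0.016 for *Tfrc* and -0.048 for *Id1* with median centring, and -0.041 for *Tfrc* with array weights. With 1 mouse left out, it ranged from -0.72 to 0.020 for *Hamp*, -1.19 to 0.72 for *Hamp2*, -0.61 to 0.69 for *Tfrc*, -0.13 to 0.40 for *Slc40a1*, -0.19 to 0.15 for *Id1* and -0.54 to 0.11 for *Smad7*. The genotype effect ranged in males from -0.59 to 0.16 for *Hamp*, -0.056 to 0.16 for *Slc40a1*, -0.028 to 0.089 for *Hfe*, -0.31 to 0.027 for *Id1*, -0.39 to 0.27 for *Smad7* and -0.20 to 0.048 for *Tmprss6*, and in females from -0.85 to 0.44 for *Tfrc* and -0.084 to 0.45 for *Slc40a1*. The sex effect ranged from -0.091 to 0.073 for *Slc40a1* and -0.19 to 0.026 for *Bmp6*. Without the 2 mice farthest from the median, the correlation of *Hamp* with *Smad7* was -0.398 and with *Bmp6* -0.0542. Causes of these changes were not tested, and the number of arrays limits all of these values.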

Other observations

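Of the other marker lists, 3 of 10 stellate cell and fibroblast genes were higher in knockout mice (3.11% of all genes) and 1 was lower (1.14%). These were the fibrillar collagens *Col3a1* at 0.71 (limma adjusted p = 0.0116) and *Col1a1* at 0.91 (limma adjusted p = 0.0266), the receptor *Pdgfrb* at 0.71 (limma adjusted p = 0.0357) and *Hhip*, a hedgehog-binding protein, at -0.90 (limma adjusted p = 0.0113). Of 9 neutrophil and lymphocyte genes 1 was higher (3.11% of all genes), namely *Csf3r*, the receptor for granulocyte colony-stimulating factor (0.50, limma adjusted p = 0.0239). *S100a8* differed by 0.49 (limma adjusted p = 0.265) around a mean of 3.92, under the highest Y-linked reading. Of 15 red cell precursor genes listed, 6 were measured and none was called, with *Klf1* at -0.25 (limma adjusted p = 0.192) and *Slc4a1* at -0.15 (limma adjusted p = 0.578). The mean of the 6 ran from 4.92 to 5.13 in knockout mice and from 5.08 to 5.23 in controls. *Tspo2* averaged 3.99, under the highest Y-linked reading of 4.51, and *Gata1* (4.61) and *Hemgn* (4.76) lay little above it. The absence of a call therefore says little about red cell precursors in these livers. Of the 10 hepatocyte markers, *Tat*, tyrosine aminotransferase, had the smallest adjusted p (-0.25, limma adjusted p = 0.127), followed by *Ttr*, transthyretin (-0.10, limma adjusted p = 0.499).

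Of the genes most like *Hamp* over the mice, *Abhd15* was lower in knockout mice (-0.372, limma adjusted p = 0.0298). *Pm20d1* (-0.442, limma adjusted p = 0.0885), *Ubr3* (-0.265, limma adjusted p = 0.0944), *Dpyd* (-0.068, limma adjusted p = 0.824) and *Olfr1475* (0.0802, limma adjusted p = 0.869) did not pass.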
